A study of Mus musculus with 16 samples.

Results

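The 10 genes Myh4, Myh1, Myh2, Tnnc2, Tnni2, Tnnt3, Actn3, Atp2a1, Casq1 and Pvalb encode contractile and calcium handling proteins of fast muscle fibres. They were taken by gene name from the mRNA table, which has 23235 gene names, and all 10 were present and were tested. RNA came from skeletal muscle of 16 male C57BL/6J mice, 6 weeks old when the experiment began, and the sources used here do not name the muscle. The 4 control mice had a normal diet, and the 4 mice of the HFD group had a high-fat diet with 60% fat. After 8 weeks on this diet, the 4 mice of the HFD + RSV group were treated with resveratrol (RSV), a plant polyphenol, and the 4 mice of the HFD + metformin group with metformin, a glucose-lowering drug. Both treatments lasted 6 weeks. Some mice of the study received insulin shortly before tissue collection, and it is not stated whether the sequenced mice were among them.

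Muscle shortens when myosin heads pull on actin filaments, and the myosin heavy chain of a fibre largely sets how fast it contracts. Adult mouse fibres are classed by that chain as slow type I (Myh7) or as fast type IIA (Myh2), IIX (Myh1) or IIB (Myh4), with IIA the most oxidative and IIB the most glycolytic of the fast types. Calcium released from the sarcoplasmic reticulum binds troponin and exposes actin to myosin, and pumps and buffers then remove the calcium so that the fibre relaxes. Fast fibres use their own forms of the troponins, the pump and the buffers.

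The genes Myh2, Myh1 and Myh4 lie next to each other in this order on chromosome 11 of GRCm38, at chr11:67171027-67197517, chr11:67200052-67224575 and chr11:67238029-67260446. The sequences upstream of the 3 start sites are shown as a description, and whether they bear on the levels of these genes was not tested. RefSeq (GRCm38.p6) has a promoter for 7 of the 10 genes. The 250 bases before the start site are chr11:67170777-67171026 for Myh2, chr11:67199852-67200101 for Myh1 and chr11:67237562-67237811 for Myh4, all on the plus strand. Capitals mark the longest run of bases that the 3 sequences share, which is 20 bases long.
Myh2: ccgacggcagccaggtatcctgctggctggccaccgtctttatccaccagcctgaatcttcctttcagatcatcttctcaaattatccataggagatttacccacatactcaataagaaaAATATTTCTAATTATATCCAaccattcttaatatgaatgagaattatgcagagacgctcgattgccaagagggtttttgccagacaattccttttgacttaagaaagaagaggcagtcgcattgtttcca
Myh1: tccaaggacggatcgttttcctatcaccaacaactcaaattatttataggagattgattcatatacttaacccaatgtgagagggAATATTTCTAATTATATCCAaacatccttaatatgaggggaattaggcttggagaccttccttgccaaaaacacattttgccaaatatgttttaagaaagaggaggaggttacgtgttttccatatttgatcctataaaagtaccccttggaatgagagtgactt
Myh4: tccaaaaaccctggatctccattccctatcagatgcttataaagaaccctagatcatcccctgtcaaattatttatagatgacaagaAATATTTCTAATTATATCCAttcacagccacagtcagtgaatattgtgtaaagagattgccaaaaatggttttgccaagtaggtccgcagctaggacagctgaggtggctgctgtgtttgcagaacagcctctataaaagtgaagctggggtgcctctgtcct
The run starts 130 bases before the start site of Myh2, 165 before that of Myh1 and 163 before that of Myh4. Of 32851 mouse promoters in the same RefSeq set, only these 3, from which the run was taken, hold it on either strand. The main transcripts of Myh4 and Myh2 in the table start downstream of the RefSeq start sites, at positions 67240597 and 67171220 of chromosome 11. The bases between these windows and those starts were not searched for the motifs below.

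Known motifs differed between the 3 upstream sequences. The E-box, CANNTG, bound by myogenic factors such as MyoD, was present at -221 and -67 from the start site of Myh4 and was absent from those of Myh1 and Myh2, and 66.2% of all promoters hold one. A MEF2 site was present at -182 in Myh4 and at -211 in Myh1, and it was absent from Myh2 (1.69% of all promoters). Its A and T bases overlap a TATAAA on the opposite strand in both genes. A TATAAA close to the start site was present at -31 in Myh4 and at -32 in Myh1, and none was found in Myh2 (12.4% of all promoters, at any position). Of the other genes with a promoter, Casq1 and Tnnc2 had 2 E-boxes each, and Atp2a1 had 1. Pvalb has more than 1 promoter in this set. That at chr15:78206401-78206650 had a MEF2 site at -180 and no E-box. That at chr15:78204238-78204487 had an E-box at -111 and no MEF2 site. TGCTGA, a half-site of Maf factors, was present in the promoters of Atp2a1 and Pvalb (16.1% of all promoters). Both strands were searched, and a match describes letters only.

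The 16 libraries held between 20281801 and 34021101 counts in the mRNA and lncRNA tables together, and the 10 genes took between 7.50% and 12.0% of the mRNA counts of a mouse. Every gene had at least 7444 counts in every library, so counting error was small beside the spread between mice. Each library is a separate mouse as far as the labels show. Control mouse 1 stood apart from the other control mice, with 10.6% of its mRNA counts in the 10 genes against 7.50% to 8.27%, and metformin mouse 3 stood apart from its group, with 7.67% against 9.81% to 12.0%. Control mouse 1 was singled out after these levels were seen, and since it was high in most of the 10 genes, leaving it out widens their difference between HFD and control. Values without it are therefore given beside those without each of the other 7 mice of the 2 groups in turn. All sample names of the HFD group begin with the same number, which no other group has. Whatever that number marks therefore cannot be told apart from the diet, or from RSV or metformin in comparisons with the HFD group. The number of 3 control mice is also that of 2 HFD + RSV mice, and 1 HFD + RSV mouse shares its number with 1 HFD + metformin mouse. The protocol text names retina as the tissue, and of 6 retina genes 3 are in the table, with summed values of at most 0.198 FPKM in any mouse.

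Levels below are FPKM, counts scaled by transcript length and library size, which allow genes of different length to be compared. Differences between groups are log2 fold changes (log2FC) with their standard error (SE) from edgeR's quasi-likelihood test on counts in all 16 mice. A gene was called at an adjusted P (Benjamini-Hochberg, over 15364 genes) under 0.05. In a piece of muscle, fewer fibres of a type and less RNA per fibre cannot be told apart.

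**Figure D1:**
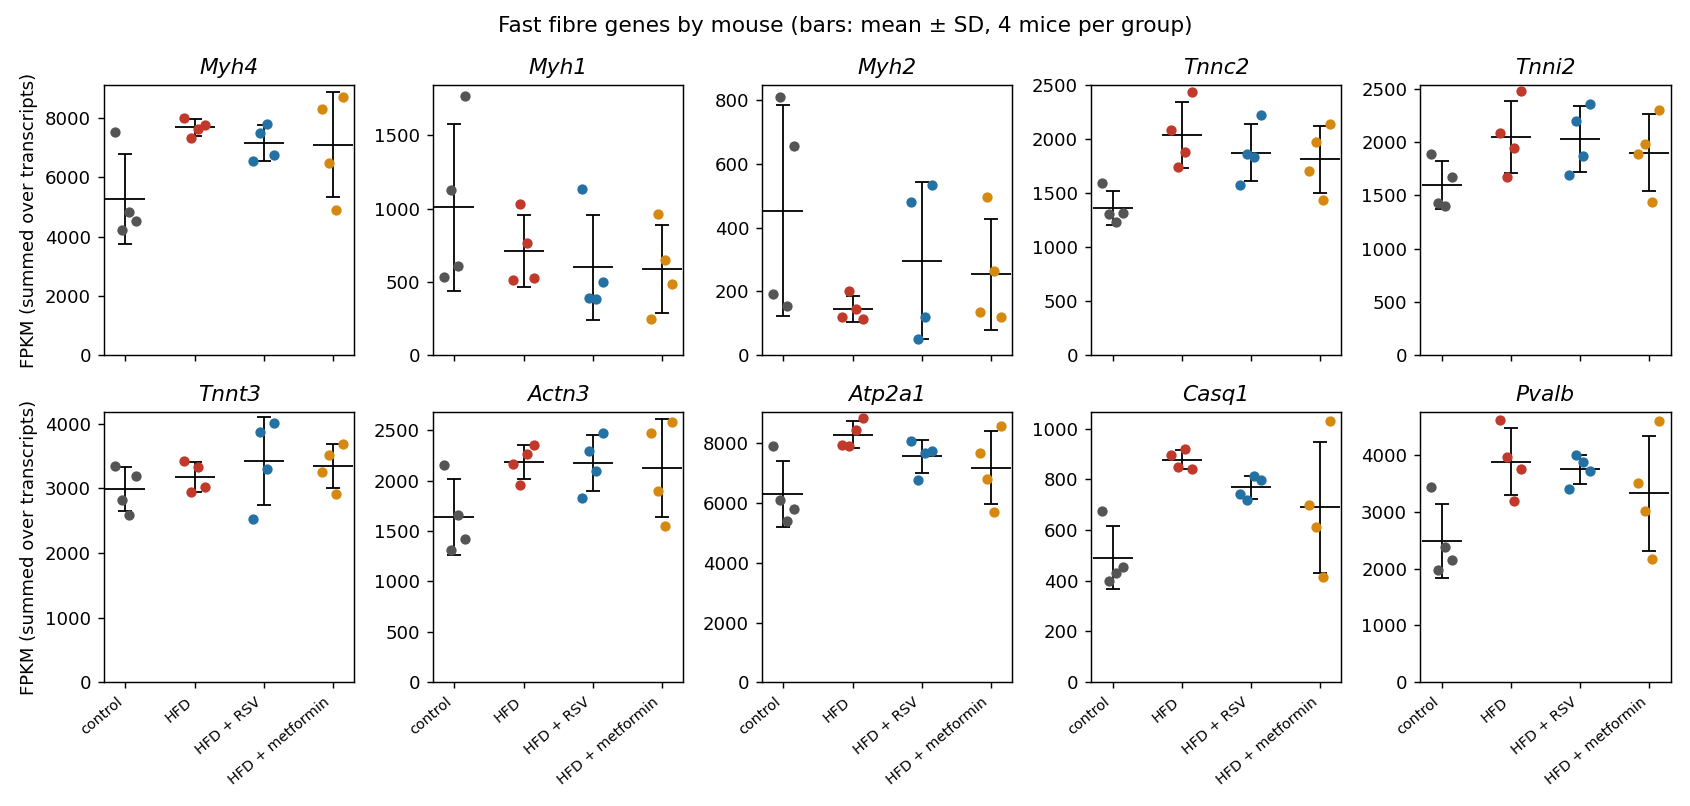
FPKM of each of the 10 genes (vertical axis, from 0) in each mouse (points) of the 4 groups, with mean ± SD (n = 4 per group). Control mouse 1 is the highest control point for Myh4, Casq1 and Pvalb, and Tnnc2 and Casq1 separate the HFD mice from all control mice.

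Myh4, the IIB myosin heavy chain, was the most abundant myosin in every mouse. Its level was 7512, 4223, 4829 and 4532 FPKM in control mice 1 to 4 and 7999, 7326, 7643 and 7766 FPKM in HFD mice. Control mouse 1 was inside the HFD range, and the other 3 control mice were below every HFD mouse. The log2FC of HFD vs control was 0.67 (SE 0.25, adjusted P = 0.127), and without control mouse 1 it was 0.96 (SE 0.22, adjusted P = 0.0301). Without another mouse it lay between 0.57 and 0.70, with an adjusted P of 0.156 or more. In the HFD + RSV group Myh4 was at 6559, 7502, 7808 and 6750 FPKM, overlapping the HFD group (log2FC -0.16, SE 0.25, adjusted P = 0.999). With metformin it was at 8300, 6483, 4879 and 8712 FPKM, and metformin mouse 3 lay just above the 3 lower control mice and below all HFD mice. The log2FC of HFD + metformin vs HFD was -0.21 (SE 0.25, adjusted P = 0.819).

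Myh1, the IIX chain, was the second myosin in all mice but 1. Control mice had 532, 1125, 609 and 1767 FPKM and HFD mice 514, 1032, 768 and 525 FPKM. Control mice 2 and 4 were above every HFD mouse and control mice 1 and 3 were inside the HFD range, and the log2FC was -0.33 (SE 0.49, adjusted P = 0.711). Its sign rested on control mouse 4, without which it was 0.02, and without control mouse 1 it was -0.50 (adjusted P = 0.574). HFD + RSV mice had 1131, 387, 383 and 498 FPKM and HFD + metformin mice 248, 965, 651 and 487 FPKM, and neither treatment was separated from HFD (log2FC -0.26 and -0.39, adjusted P = 0.999 and 0.831).

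Myh2, the IIA chain, was the lowest of the 3 in every mouse but HFD + RSV mouse 4. Control mice had 191, 809, 154 and 657 FPKM and HFD mice 118, 201, 143 and 114 FPKM. A pair of control mice, 2 and 4, were far above all HFD mice, and control mice 1 and 3 lay inside the HFD range. The log2FC was -1.49 with an SE of 0.73 and an adjusted P of 0.228, so the difference did not pass the test. Without control mouse 1 it was -1.73 (adjusted P = 0.176), and without another mouse it lay between -1.80 and -1.05. In the HFD + RSV group mice 1 and 4 had 481 and 532 FPKM while mice 2 and 3 had 49.4 and 119 FPKM. HFD + metformin mice had 136, 495, 263 and 119 FPKM. Each treated group had mice inside and above the HFD range, and HFD + RSV mouse 2 was below it. The log2FC against HFD was 0.98 (SE 0.73) for HFD + RSV and 0.69 (SE 0.72) for HFD + metformin, with adjusted P of 0.999 and 0.792.

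The make-up of the myosin pool was compared inside each mouse, where scaling between libraries plays no part. Myh4 gave 91.0%, 66.9%, 85.0% and 64.3% of the summed FPKM of 6 myosin heavy chain genes in control mice. In HFD mice its share was 92.5%, 85.4%, 89.1% and 92.2%. The HFD shares were within a narrower range, and control mouse 1 was among them. The Myh2 share was 2.31%, 12.8%, 2.71% and 9.32% in control mice and 1.35% to 2.35% in HFD mice. Slow Myh7 gave at most 2.23% in any mouse, in control mouse 2. In HFD + RSV mice the Myh4 share was 80.1%, 94.0%, 93.7% and 85.7%, and in HFD + metformin mice it was 95.2%, 81.2%, 83.9% and 93.2%. HFD + RSV mouse 4 was the exception to the order of the subtypes, with 6.76% Myh2 against 6.33% Myh1.

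**Figure D2:**
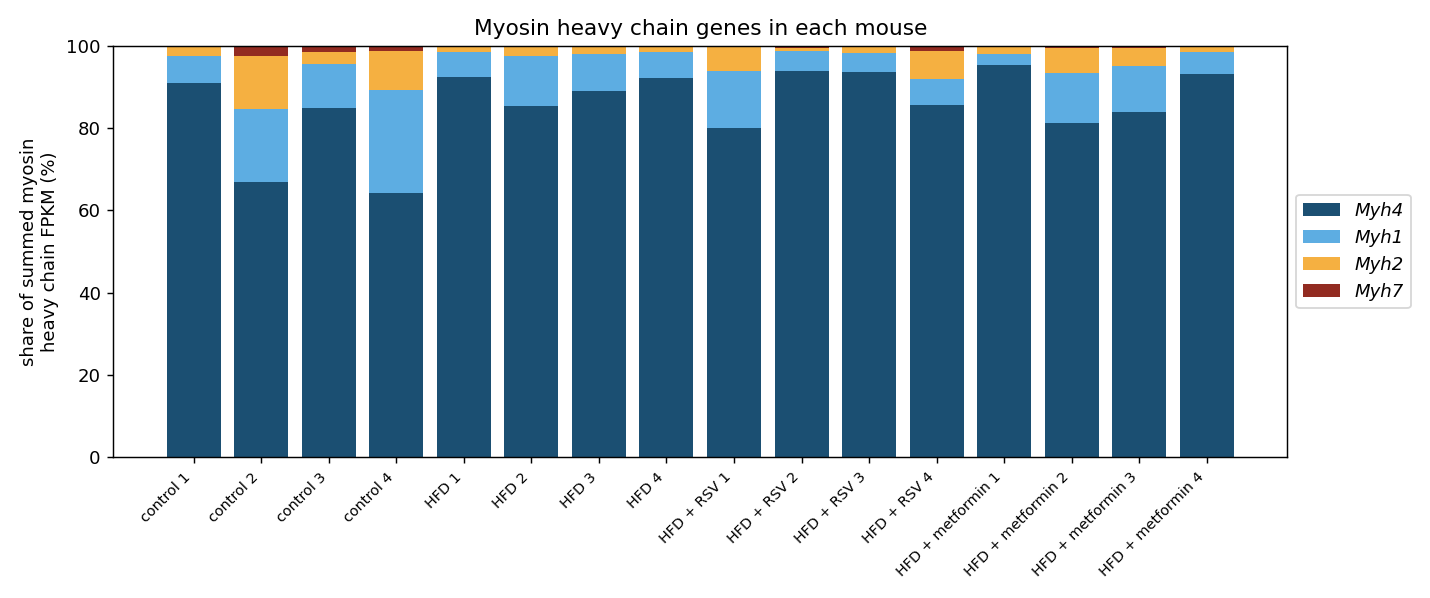
Share of Myh4, Myh1, Myh2 and Myh7 in the summed FPKM of myosin heavy chain genes (vertical axis, percent) in each of 16 mice (bars). Myh4 is the largest share everywhere, from 64.3% in control mouse 4 to 95.2% in metformin mouse 1.

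Ratios of the subtypes were compared by permuting mice between groups (exact, two-sided), which with 4 mice in each group can give no P under 0.0286. P was adjusted over 9 tests. The log2 ratio of Myh2 to Myh1 was -1.48, -0.48, -1.98 and -1.43 in control mice and -2.12, -2.36, -2.42 and -2.21 in HFD mice. All HFD mice were below all control mice, and the means differed by -0.94 (exact P = 0.0286, adjusted P = 0.129). With metformin the ratio was -0.87, -0.96, -1.31 and -2.03, above every HFD mouse, a difference of 0.98 (exact P = 0.0286, adjusted P = 0.129). With RSV it was -1.23, -2.97, -1.68 and 0.10, on both sides of the HFD values (difference 0.83, exact P = 0.286, adjusted P = 0.514). Neither separation of Myh2 to Myh1 passed after adjustment, and neither held when only the main transcript of each gene was used (exact P = 0.143 for both).

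The ratio of Myh2 to Myh4 was lower by 1.91 log2 units in HFD mice than in control mice, at means of -5.77 ± 0.43 and -3.86 ± 1.49 (SD, n = 4, exact P = 0.0571, adjusted P = 0.171). Control mouse 1 had a Myh2 to Myh4 ratio of -5.30, inside the HFD range. The ratio of Myh1 to Myh4 differed by -0.98 between HFD and control (exact P = 0.2, adjusted P = 0.45). For HFD + RSV and HFD + metformin against HFD, differences were 0.60 and 0.76 for Myh2 to Myh4 and -0.23 and -0.22 for Myh1 to Myh4 (exact P from 0.343 to 0.743). These 3 genes are near copies, and their main transcripts are 86.2% to 88.7% identical. Of all stretches of 50 bases in the Myh2 transcript, 19.9% occur unchanged in Myh1 and 10.1% in Myh4, and of stretches of 100 bases 7.67% and 1.20%. The read length is not given in the sources used here, and fragments were read from both ends, so how many reads could not be placed is unknown and the division between the subtypes is uncertain.

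Tnnc2, the calcium-binding subunit of fast troponin, was the most clearly separated troponin gene. It was at 1593, 1309, 1233 and 1321 FPKM in control mice and at 2090.2, 1744, 1886 and 2442 FPKM in HFD mice. Every HFD mouse was above every control mouse. The log2FC was 0.71 (SE 0.19, adjusted P = 0.0609), above the threshold. Without control mouse 1 it was 0.85 (SE 0.20, adjusted P = 0.0315), and without another mouse between 0.62 and 0.76 (adjusted P of 0.104 or more). HFD + RSV mice had 1580, 1862, 1838 and 2226 FPKM (log2FC against HFD -0.17, SE 0.19) and HFD + metformin mice 1702, 1974, 1438 and 2146 FPKM (log2FC against HFD -0.26, SE 0.19). Both treated groups spanned the gap between control and HFD.

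Tnni2 encodes the inhibitory subunit and Tnnt3 the tropomyosin-binding subunit of the same complex. Tnni2 was at 1889, 1425, 1403 and 1669 FPKM in control mice and at 2087, 1672, 1943 and 2481 FPKM in HFD mice, which overlapped through control mouse 1 (log2FC 0.49, SE 0.19, adjusted P = 0.142). Without that mouse the log2FC of Tnni2 was 0.63 (adjusted P = 0.0722), and without another between 0.41 and 0.56. Tnnt3 was the most abundant troponin gene and differed least, at 2986 ± 344 FPKM in control and 3177 ± 233 FPKM in HFD mice (SD, n = 4, log2FC 0.23, SE 0.19, adjusted P = 0.491). Its log2FC was 0.34 without control mouse 1 (adjusted P = 0.312) and between 0.14 and 0.30 without another mouse. HFD + RSV mouse 1 had the lowest Tnnt3 of all mice, 2519 FPKM, and HFD + RSV mouse 4 the highest, 4012 FPKM.

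Actn3, an actin cross-linker of the Z-disc found in fast fibres, was at 2155, 1311, 1659 and 1421 FPKM in control mice and at 2162, 1960.4, 2266 and 2353 FPKM in HFD mice. Again control mouse 1 lay inside the HFD range. The log2FC was 0.54 (SE 0.22, adjusted P = 0.158), and 0.78 (SE 0.21, adjusted P = 0.0487) without control mouse 1. Without another mouse it lay between 0.45 and 0.58 (adjusted P of 0.209 or more). Actn3 averaged 2172 ± 279 FPKM with RSV and 2125 ± 488 FPKM with metformin (SD, n = 4), against 2185 ± 169 FPKM in HFD mice.

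Atp2a1 encodes SERCA1, the pump that returns calcium to the sarcoplasmic reticulum of fast fibres. It was at 7913, 6108, 5389 and 5817 FPKM in control mice and at 7944, 7904, 8451 and 8870 FPKM in HFD mice. The groups overlapped by a single mouse, control mouse 1, which was just above the lowest HFD mouse. The log2FC was 0.52 (SE 0.20, adjusted P = 0.133), and 0.71 (SE 0.19, adjusted P = 0.0434) without that mouse. Without another mouse it lay between 0.41 and 0.53 (adjusted P of 0.175 or more). Atp2a1 was higher than Myh4 in 11 of the 16 mice. HFD + RSV mice had 8071, 6780.1, 7687 and 7747 FPKM and HFD + metformin mice 7677, 6805, 5700 and 8574 FPKM of Atp2a1, and both overlapped the HFD group.

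Casq1, calsequestrin of fast fibres, which stores calcium inside the reticulum, differed most between HFD and control among the genes that were higher in HFD. It was at 676, 401, 432 and 456 FPKM in control mice and at 898, 849, 918 and 842 FPKM in HFD mice. No control mouse reached the HFD range. The log2FC was 0.96 (a 1.95-fold level, SE 0.27, adjusted P = 0.0673), and 1.22 (SE 0.26, adjusted P = 0.0280) without control mouse 1. Without another mouse it lay between 0.86 and 1.02 (adjusted P of 0.0873 or more). HFD + RSV mice had 743, 720, 814 and 796 FPKM, all between the control and the HFD range (log2FC against HFD -0.25, SE 0.27, adjusted P = 0.999). HFD + metformin mice had 701, 614, 413 and 1032 FPKM of Casq1, so that metformin mouse 3 lay at the control level and mouse 4 above all HFD mice (log2FC against HFD -0.43, SE 0.27, adjusted P = 0.670).

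Pvalb, parvalbumin, a soluble calcium buffer that speeds relaxation, was at 3436, 1977, 2388 and 2161 FPKM in control mice and at 4623, 3966, 3189 and 3767 FPKM in HFD mice. Control mouse 1 was above the lowest HFD mouse, and the other control mice were below all of them. The log2FC was 0.77 (SE 0.26, adjusted P = 0.101), and 1.04 (SE 0.25, adjusted P = 0.0344) without control mouse 1. Without another mouse it lay between 0.67 and 0.85 (adjusted P of 0.124 or more). Pvalb was at 3414, 4001, 3879 and 3725 FPKM with RSV. With metformin it was at 3520.0, 3022, 2171 and 4602 FPKM, a range that covered most of both the control and the HFD values.

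Over the 10 genes, 8 were higher and 2, Myh1 and Myh2, were lower in HFD than in control mice, with a median log2FC of 0.53 against -0.02 over all genes tested. At an adjusted P under 0.05, 0 of 10 were called, where 2.43% of all genes tested were called. At an unadjusted P under 0.05, 7 of 10 were higher (Myh4, Tnnc2, Tnni2, Actn3, Atp2a1, Casq1 and Pvalb), where 11.7% of all genes were (24.2% in either direction). This count was 4 without control mouse 2 or without control mouse 4 and 8 without control mouse 1, where Myh2 was lower (log2FC -1.73). The share of all genes at an unadjusted P was not computed for these fits, so their counts have no background. Without control mouse 1, 6 genes were called higher (Myh4, Tnnc2, Actn3, Atp2a1, Casq1 and Pvalb), against 3.04% of all genes, and without any of the other 7 mice 0 were called. DESeq2 on all mice called 5 higher, the same genes but Actn3, against 5.22% of all genes. Fits to fewer groups called Casq1 and Tnnc2 (8 mice of control and HFD, 3.03% of all genes higher) or these and Pvalb (12 mice without metformin, 4.90% of all genes higher). Without TMM scaling the median of all genes shifted by -0.16, the share of called genes that were higher went from 54.3% to 43.0%, and 0 members were called. limma on FPKM values also called 0.

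**Figure D3:**
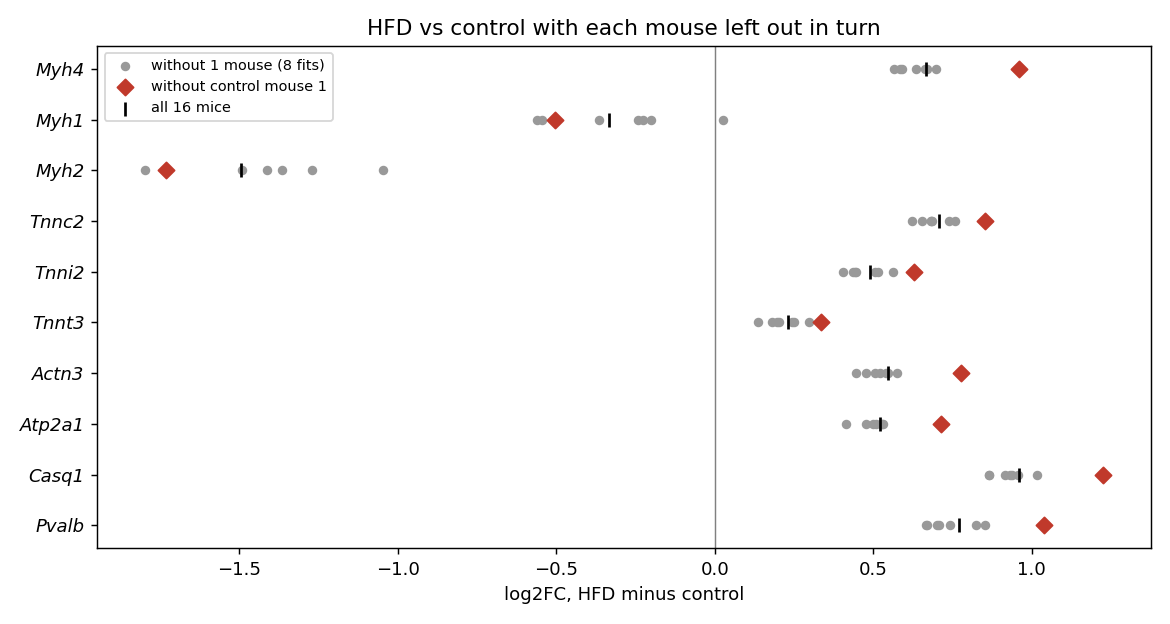
log2FC of HFD vs control (horizontal axis) for each gene from all 16 mice (black bars), with each control or HFD mouse left out in turn (grey points), and without control mouse 1 (red diamonds). Leaving out control mouse 1 gives the highest value for the 8 genes other than Myh1 and Myh2, and for Casq1 it moves the value from 0.96 to 1.22.

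For HFD + RSV vs HFD, 0 of 10 genes were called by edgeR at an adjusted P (0% of all genes) and 0 of 10 at an unadjusted P under 0.05 (4.72% of all genes). The median log2FC of the 10 genes was -0.14 against 0.00 over all genes, with 8 lower and 2 higher (Myh2 and Tnnt3). The 95% intervals of the 8 genes other than Myh1 and Myh2 lay between -0.82 and 0.51, whereas that of Myh2 ran from -0.57 to 2.53. For HFD + metformin vs HFD, 0 of 10 were called (0.0130% of all genes) and 0 of 10 had an unadjusted P under 0.05 (8.02% of all genes). The median log2FC was -0.23 against 0.02 over all genes, and Casq1 was the lowest at -0.43, with an interval from -1.01 to 0.14. Without TMM scaling the median of all genes shifted by 0.13 in this comparison. Intervals of this width neither show a difference from HFD nor show that levels were alike.

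**Figure D4:**
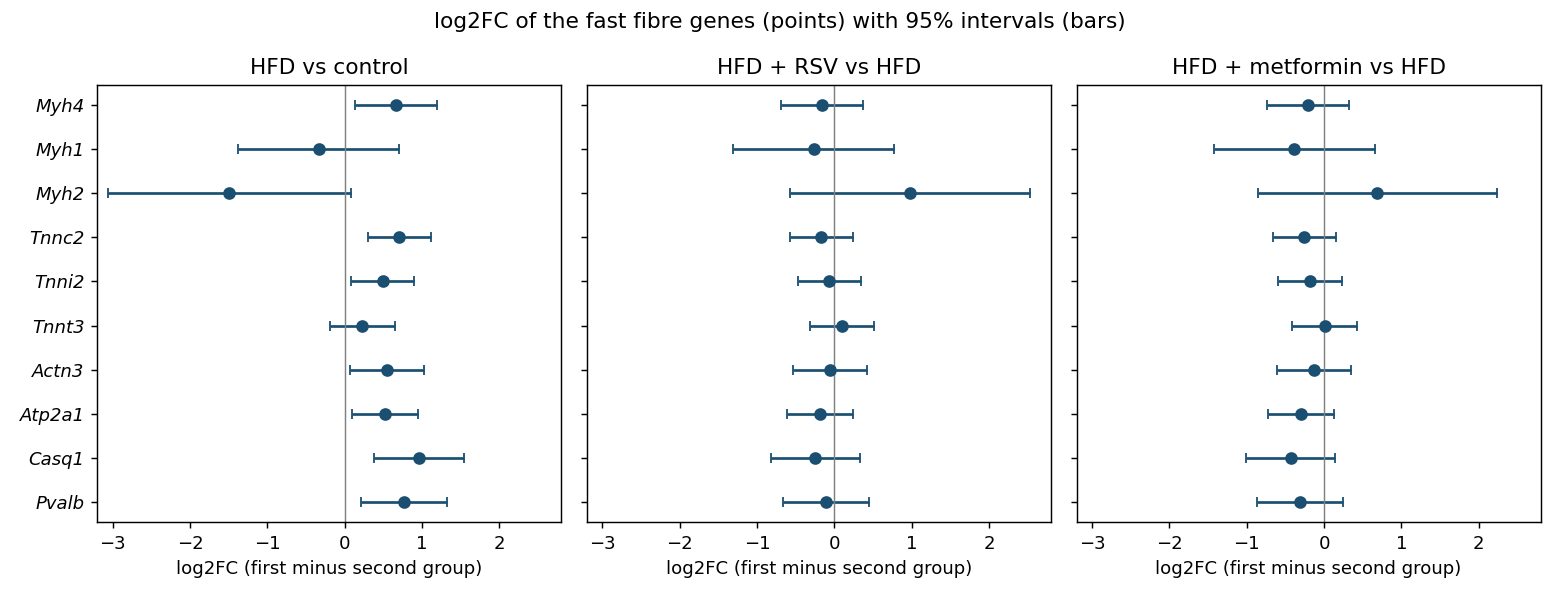
log2FC (points) and 95% interval (bars) of the 10 genes for HFD vs control, HFD + RSV vs HFD and HFD + metformin vs HFD. The 8 genes from Myh4 to Pvalb other than Myh1 and Myh2 have positive values in the first panel and values between -0.43 and 0.10 in the other panels, where all intervals include 0.

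The treated groups were also set against the control mice, which are the same 4 mice as above. For HFD + RSV vs control, 0 of 10 genes were called (0.00651% of all genes). Unadjusted P was under 0.05 for 5 higher genes, Tnnc2, Tnni2, Actn3, Casq1 and Pvalb, against 7.80% of all genes. In either direction the count was 1 without control mouse 2 or 3, 2 without control mouse 4 or HFD + RSV mouse 4, 3 without HFD + RSV mouse 2, and 7 without control mouse 1 or HFD + RSV mouse 1. The share of all genes was not computed for these fits, so their counts cannot be set against a background. Casq1 had a log2FC of 0.71 (SE 0.27, adjusted P = 0.240) and Pvalb of 0.66 (SE 0.26, adjusted P = 0.249). For HFD + metformin vs control, 0 of 10 were called (0% of all genes), and Tnnc2 alone was higher at an unadjusted P under 0.05 (log2FC 0.45, SE 0.19, adjusted P = 0.470, 5.34% of all genes). This count was unstable, since in either direction it was 7 without control mouse 1, 6 without metformin mouse 3, and 0 without control mouse 2, 3 or 4 or metformin mouse 4. Here too the share of all genes in the fits without 1 mouse was not computed. HFD + RSV and HFD + metformin mice, which were treated for the same time, differed in 0 of 10 genes at an adjusted P (0% of all genes) and in 0 of 10 at an unadjusted P under 0.05 (4.68% of all genes), with a median log2FC of 0.12. By edgeR's test over all 4 groups, the lowest adjusted P of a member was 0.244, for Tnnc2. DESeq2 and limma also called 0 of 10 genes in each of the 5 comparisons with a treated group.

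How the genes varied between mice of the same group was described with log2 CPM values centred on the group means (16 mice). The 8 genes other than Myh1 and Myh2 varied together, with r from 0.53 to 0.94 and a median of 0.80 over 28 pairs. Control mouse 1 and metformin mouse 3 stood apart from their groups, and r without them was not computed. The 8 genes also share the depth and scaling of each library. Against these 8, Myh1 had r from -0.44 to -0.04 and Myh2 from -0.34 to 0.06. Of 5 relations between myosins that were tested by permutation, Myh1 with Myh2 had r = 0.79 (permutation P = 0.00312, adjusted P = 0.0156) and rho = 0.81 (permutation P = 0.00462, adjusted P = 0.0231). Without the 2 mice farthest from the median of Myh1, r was 0.79. Myh4 with Myh2 had r = -0.34 (permutation P = 0.250, adjusted P = 0.385), rho = -0.49 (adjusted permutation P = 0.208), and Myh7 with Myh2 r = 0.19 (permutation P = 0.574, adjusted P = 0.574), rho = 0.32 (adjusted permutation P = 0.290). Reads that Myh1 and Myh2 share could enter this relation, and their part in it was not tested. Outside the 10 genes, the genes whose pattern was most like their mean were Tnks2 (r = 0.96), Ensa (0.96), Sel1l3 (0.95), Vapb (0.95) and Pde4dip (0.94), as a description over 16 mice that share depth and scaling with the members.

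The 10 genes have 53 transcripts in the table, and how counts were divided among them is an estimate of the authors' software. Myh2, Myh4, Tnnc2, Actn3, Atp2a1, Casq1 and Pvalb each had 1 transcript with at least 5% of the counts, which held 98.1% or more. Myh1 was divided over ENSMUST00000018637 (57.2%), ENSMUST00000124516 (36.0%) and ENSMUST00000075734 (6.09%). Tnni2 had 4 such transcripts, led by ENSMUST00000210239 (32.8%) and ENSMUST00000105971 (29.5%), with ENSMUST00000105973 at 26.8% and ENSMUST00000149529 at 6.84%. Tnnt3, whose transcripts differ by alternative splicing, had 5. The share of ENSMUST00000074187 in Tnnt3 averaged 29.0% (21.9% to 35.5%) in control and 45.1% (38.2% to 48.5%) in HFD mice. It averaged 38.3% (32.9% to 49.6%) with RSV and 38.8% (33.6% to 47.3%) with metformin. In edgeR's fit to transcripts, ENSMUST00000074187 had a log2FC of 0.89 for HFD vs control (SE 0.28, adjusted P = 0.217). The share of ENSMUST00000105958 averaged 9.28% (5.99% to 11.5%) in control and 3.05% (2.17% to 4.08%) in HFD mice. This transcript averaged 8.25% (2.06% to 14.5%) with RSV and 10.7% (2.94% to 15.7%) with metformin. In the fit to transcripts its log2FC was -1.29 for HFD vs control (SE 0.67, adjusted P = 0.441), 1.70 for HFD + RSV vs HFD (SE 0.68, adjusted P = 0.974) and 1.70 for HFD + metformin vs HFD (SE 0.68, adjusted P = 0.808). The remaining transcripts of Tnnt3 above 5% were ENSMUST00000125649 (12.4%), ENSMUST00000146804 (12.3%) and ENSMUST00000169299 (8.91%). ENSMUST00000125649 took 12.2% to 16.4% in control and 7.60% to 9.16% in HFD mice. ENSMUST00000169299 took 8.77% to 10.9% in control and 5.68% to 8.10% in HFD mice, whereas the shares of ENSMUST00000146804 overlapped. For HFD vs control the log2FC was -0.52 for ENSMUST00000125649 and -0.30 for ENSMUST00000169299 (edgeR, adjusted P = 0.643 and 0.751). In edgeR's fit to 44573 transcripts, 0 of the 51 member transcripts tested were called in any of 6 comparisons, and 0.0157% of all transcripts were called for HFD vs control, the highest share of the 6. At an unadjusted P under 0.05 there were from 0 (HFD + RSV vs HFD + metformin) to 9 (HFD vs control) of these transcripts. The share of all transcripts at that threshold was not computed, so these counts cannot be set against a background.

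Other genes of the fast fibre programme were counted from lists. Of 8 other fast sarcomere genes, among them the light chains Mylpf and Myl1, 0 were called by edgeR for HFD vs control and 4 had an unadjusted P under 0.05, with a median log2FC of 0.48. Of 8 enzymes that supply energy in fast fibres, such as Ckm and Pygm, 0 were called and 1 had an unadjusted P under 0.05, with a median of 0.38. Among 17 regulators of fibre type, 2 rose in HFD mice and 0 fell, where 2.43% of all genes were called, and 9 had an unadjusted P under 0.05, where 24.2% of all genes did. Mef2c, a transcription factor of the MEF2 family, was at 39.9, 79.7, 26.8 and 79.2 FPKM in control and 111.5, 119.0, 115.4 and 82.8 FPKM in HFD mice (log2FC 1.66, SE 0.27, adjusted P = 0.0149). The size of its change depended on the unit, since summed counts gave 3.16-fold and the mean FPKM 1.90-fold, with a log2FC of 1.04 by limma. Maf, a factor of the large Maf family, which is linked to Myh4, was at 31.3, 22.7, 30.1 and 24.7 FPKM in control and 46.1, 47.7, 45.1 and 41.9 FPKM in HFD mice (log2FC 0.85, SE 0.19, adjusted P = 0.0418). Both genes were above all control mice in every HFD mouse, and control mouse 1 was not in the HFD range. Under 16 other settings the call of Mef2c was lost in 1 (limma, adjusted P = 0.0969), and that of Maf in 7, each time without 1 mouse other than control mouse 1 (adjusted P up to 0.113). By edgeR 0 genes of these 3 lists were called in the comparisons with a treated group.

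Slow fibre genes and markers of other cell types were read beside the 10 genes. The 11 slow genes, which include Myh7, Tnnc1 and Myl2, had a summed level of 45.5, 1166, 519 and 883 FPKM in control mice and 46.1 to 132.9 FPKM in HFD mice. Control mouse 1 was inside the HFD range for most of the fast genes, though below it for Tnnc2 and Casq1. Its summed slow level, 45.5 FPKM, was just below the HFD range. Of the 11, 0 were called by edgeR for HFD vs control, 9 had an unadjusted P under 0.05 (24.2% of all genes), and the median log2FC was -3.44. Between HFD + RSV and HFD 5 had an unadjusted P under 0.05 (4.72% of all genes), with a median log2FC of 2.17 and 0 called. Summed slow genes were at 77.2, 244, 99.6 and 636 FPKM with RSV and 161, 300.4, 211 and 101 FPKM with metformin. HFD + RSV mouse 4, which had more Myh2 than Myh1, had the highest slow level outside the control group.

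Adipocyte markers were measured because muscle is bordered by fat. The 7 white adipocyte markers summed to 1066, 912, 4551 and 1553 FPKM in control mice and 146 to 847 FPKM in HFD mice. Sums were 216 to 986 FPKM in HFD + RSV and 163 to 3971 FPKM in HFD + metformin mice. For HFD vs control 0 of the 7 were called and 3 had an unadjusted P under 0.05 (24.2% of all genes). The 4 brown adipocyte markers summed to 20.3 to 539 FPKM in control and 0.902 to 3.06 FPKM in HFD mice. Of these, 2 were called lower in HFD mice, where 2.43% of all genes were called in either direction. They were Elovl3 (log2FC -8.54, SE 1.78, adjusted P = 0.0342) and Cidea (log2FC -6.30, SE 1.53, adjusted P = 0.0474). Elovl3 was listed at 0 in HFD mice 1, 2 and 4, so its fold depends on the prior count of the fit. Under the same 16 settings the call of Elovl3 was lost in 8 and that of Cidea in 9 (adjusted P up to 0.107 and 0.136). Between HFD + metformin and HFD 3 of the 4 brown markers had an unadjusted P under 0.05 (8.02% of all genes), with a median log2FC of 3.82 and 0 called. Brown sums were 6.29, 1.86, 136 and 0.971 FPKM in metformin mice 1 to 4. Metformin mice 2 and 4 were thus inside the HFD range, and mouse 3 was far above the others. Control mouse 3 and metformin mouse 3 had the highest sums of both adipocyte lists, and these mice had the lowest share of counts in the 10 fast genes (7.50% and 7.67%). Control mouse 2 was close to them at 7.81%, yet its white adipocyte sum, 912 FPKM, was the lowest of the control group. Its brown adipocyte sum was 83.3 FPKM. The part of fat in the levels of the fast genes was not tested. Of the Schwann cell, erythroid, macrophage, endothelial and fibroblast lists (5 genes each) and the developmental myosins Myh3 and Myh8, 0 genes were called by edgeR in any comparison. For HFD vs control, an unadjusted P was under 0.05 for 3 Schwann cell, 0 erythroid, 1 macrophage, 3 endothelial and 0 fibroblast markers and for both developmental myosins (24.2% of all genes). Between HFD + RSV and HFD it was under 0.05 for 4 Schwann cell and 4 erythroid markers (medians 1.25 and 0.92, 4.72% of all genes), and for HFD + metformin vs HFD for 5 erythroid and 2 endothelial markers (medians 1.12 and 0.30, 8.02% of all genes). Summed erythroid markers were at 435 to 1290.4 FPKM in control and 432 to 557 FPKM in HFD mice, and fibroblast markers at 245 to 339 and 231 to 263 FPKM. Schwann cell markers were at 21.9 to 88.5 FPKM in control and 15.9 to 24.6 FPKM in HFD mice, macrophage markers at 57.7 to 104 and 36.1 to 79.3 FPKM, and endothelial markers at 70.8 to 97.3 and 60.0 to 66.1 FPKM. In HFD + RSV mice 1 to 4 Schwann cell markers summed to 33.7, 168, 15.8 and 49.2 FPKM. Mouse 2 was far above the others, and mouse 3 was just below all HFD mice. Erythroid markers summed to 660, 1742, 645 and 762 FPKM in the same HFD + RSV mice.

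**Figure D5:**
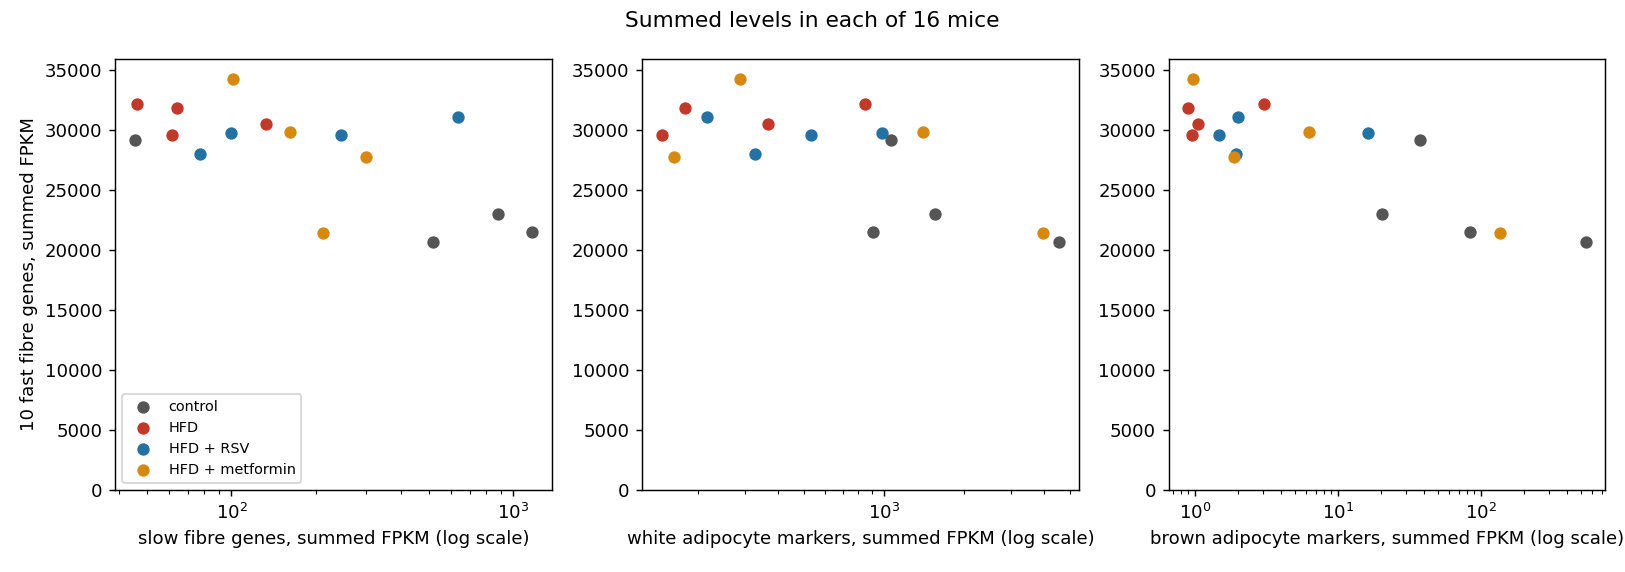
Summed FPKM of the 10 fast fibre genes (vertical axis, from 0) against the summed FPKM of slow fibre genes, white adipocyte markers and brown adipocyte markers (horizontal axes, log scale) in each of 16 mice, coloured by group. Control mice 2, 3 and 4 and metformin mouse 3 lie lowest, between 20689 and 23000.5 FPKM, and all other mice lie at 27752 FPKM or above.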

How the data were processed

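RNA from skeletal muscle of 16 mice, 4 per group, was sequenced after removal of ribosomal RNA, per the study's methods. Reads were cleaned with fastp and aligned with HISAT2 to GRCm38 per the labels, and transcripts were counted with StringTie. The authors deposited 1 table of mRNAs and 1 of lncRNAs with an expected count per transcript and mouse, and beside it an FPKM value. Recomputing the deposited FPKM from counts and transcript lengths gave library sizes that matched the summed counts of both tables to 0.00962%. The mRNA table has 82388 transcripts, 4 of them broken over 2 lines and repaired here. The annotation is not named in the sources used here, and 52 of the 53 member transcripts have the position they have in GENCODE M21.

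Expected counts, which are whole numbers in the tables, were summed per gene name and tested with edgeR 4.0.16 (R 4.3.3): filterByExpr by group (minimum count 10, minimum total 15), TMM, and glmQLFit with robust estimation in 1 fit to all 16 mice, with Benjamini-Hochberg adjustment over 15364 genes. The common biological coefficient of variation was 0.261. Standard errors were the absolute log2FC divided by the square root of F, and 95% intervals used the t quantile at the degrees of freedom of each gene. The scripts were tested on simulated data. FPKM were summed per gene name for levels and for ratios of myosins, which were tested with exact permutation tests, and correlations used 1e+05 permutations. log2 CPM used a prior count of 2. Alternatives were DESeq2 1.42.0, other scalings, no filter, fits to 8 or 12 mice, limma 3.58.1 on log2(FPKM + 1), and leaving out each mouse. Whether counting used strand is not stated, so antisense reads cannot be told apart.

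The text names all 10 members, their transcripts with at least 5% of the counts of the gene, up to 3 called genes of each other list and comparison, and the 5 genes most like the members. The other genes of the lists are named as examples or beside a result they touch. Members and lists were chosen with earlier results of these data known. Sequences upstream of genes are 250 bases from RefSeq promoters.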

Additional observations from a re-analysis of the deposited data

Results flagged for a closer look

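In groups of 4 mice, a highest or lowest mouse was marked where its gap to the next mouse was, as a part of the range of the group, above Dixon's 95% limit. Of 52 groups of values tested, 3 were marked, and chance marks about 1 in 20. Myh4 in control mouse 1 was at 15.73 log2 CPM, where the other control mice were at 14.74 to 14.83. Pvalb in the same mouse was at 11.96 log2 CPM, where the others were at 11.01 to 11.17. Pvalb in HFD + RSV mouse 1 was at 11.88 log2 CPM, below the narrow range of 12.07 to 12.09 of the other mice of its group.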

How the results depend on the processing

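No paired analysis was possible because the leading numbers of the sample names share at most 1 number between any groups compared, and nothing says that the numbers after them link mice of different groups. For HFD vs control, members called went from 0 to 5 with DESeq2, 2 with the 8 mice of both groups and 3 with the 12 mice without metformin, and lay between 0 and 6 when 1 mouse was left out. Members at an unadjusted P lay between 4 and 8 without 1 mouse (7 with all). For the alternatives in this paragraph, the share of all genes at an unadjusted P was not computed, so such counts of members have no background. The 374 genes called became 1544 with DESeq2, 186 without TMM, 158 without a filter on low counts, 998 with 8 mice, 1616 with 12 mice and 181 with limma, and lay between 16 and 773 without 1 mouse. Genes called for HFD + RSV vs HFD were 0, but 8 with DESeq2 and 0 to 1 without 1 mouse. For HFD + metformin vs HFD the 2 genes called became 31 with DESeq2, 1 without TMM, 1 with 8 mice, 0 with limma and 0 to 2 without 1 mouse. For HFD + RSV vs control the 1 gene called became 355 with DESeq2, 231 with 12 mice, 0 without TMM, 0 with limma and 0 to 11 without 1 mouse, and 1 to 7 members had an unadjusted P under 0.05 without 1 mouse. For HFD + metformin vs control 141 genes were called with DESeq2, 3 with limma and 0 to 180 without 1 mouse, and the 1 member at an unadjusted P became 2 with DESeq2, 3 without TMM, 0 with 8 mice, 2 with limma and 0 to 7 without 1 mouse. For HFD + RSV vs HFD + metformin DESeq2 called 10 genes. In all 5 comparisons with a treated group, 0 members were called under every alternative run.

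The difference in log2 Myh2/Myh1 between HFD and control was -0.87 when taken from main transcripts and lay between -1.15 and -0.65 without 1 mouse. That of HFD + metformin vs HFD was 0.76 from main transcripts and lay between 0.84 and 1.23. With 3 mice against 4 no exact P can be under 0.0571. The difference in log2 Myh1/Myh4 for HFD + metformin vs HFD lay between -0.55 and 0.23 without 1 mouse. For HFD vs control, only Myh1 changed sign without 1 mouse (log2FC -0.56 to 0.025). For HFD + RSV vs HFD, leaving out 1 mouse gave -0.16 to 0.022 for Tnni2, -0.032 to 0.24 for Tnnt3 and -0.16 to 0.020 for Actn3. For HFD + metformin vs HFD, Tnnt3 was -0.00124 with upper-quartile scaling, -0.00143 without a filter and -0.062 to 0.12 without 1 mouse, and Actn3 was -0.28 to 0.034. For HFD + RSV vs HFD + metformin, the direction of 9 members depended on 1 mouse, most often metformin mouse 3. These values were -0.39 to 0.58 for Myh1, -0.19 to 0.92 for Myh2 (-0.12 with limma), -0.13 to 0.20 for Myh4, -0.054 to 0.22 for Tnnc2, -0.029 to 0.24 for Tnni2, -0.038 to 0.24 for Tnnt3, -0.025 to 0.25 for Atp2a1, -0.093 to 0.22 for Actn3 and -0.030 to 0.49 for Casq1. Where a count moved with the tool or scaling, the cause was not tested.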
